A study of Mus musculus with 6 samples.

Results

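The regions described here are the SMAD1/5 ChIP-seq peaks around Esrrb, Tfcp2l1, Tbx3 and Prdm14, 4 genes for transcription factors of naive pluripotency. A peak was a member when it overlapped 1 of 4 fixed mm9 windows: chr12:87650000-87910000 for Esrrb, chr1:120450000-120650000 for Tfcp2l1, chr5:120030000-120230000 for Tbx3 and chr1:13010000-13210000 for Prdm14. The windows hold 49 of the 24441 peaks in the 4 deposited lists: 15 of 9387 from LIF+serum, 32 of 14696 from LIF+BMP-4, 0 of 225 from 1.5 h of BMP-4 and 2 of 133 from 24 h of BMP-4.

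The study mapped SMAD1/5 binding in the naive and the primed pluripotent state. Mouse E14 embryonic stem cells (ESCs, naive) were grown either with LIF and fetal bovine serum or with LIF and BMP-4 in basal medium. Epiblast stem cells derived from ESCs (ESD-EpiSCs, primed) were kept with FGF2 and activin A and then exposed to BMP-4, either for 1.5 h or for a full 24 h. The BMP-4 concentration was 10 ng/ml. Chromatin was precipitated with an anti-Smad1 antibody, and each of the 4 conditions is 1 library, so conditions are compared without replicates and without p-values. Naive against primed state cannot be told apart from medium, from the length of BMP-4 exposure or from the library. Peak lists hold no expression values, so the cell types could not be checked against marker genes.

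Bone morphogenetic proteins (BMPs) act through receptors that phosphorylate SMAD1 and SMAD5, which enter the nucleus with SMAD4 and bind regulatory DNA. BMP-4 together with LIF sustains self-renewal of mouse ESCs without serum, whereas primed cells depend on FGF and activin. Esrrb is an orphan nuclear receptor, Tfcp2l1 a CP2-family factor downstream of LIF and STAT3, Tbx3 a T-box factor, and Prdm14 a PR-domain zinc finger protein that restrains FGF signalling and de novo DNA methylation in ESCs.

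The bound sequences themselves were not read, because an mm9 genome was not used here. The RefSeq promoter table (GRCm38.p6, from 250 bases before to 50 bases after each start) held 1 entry for Tfcp2l1 and 2 for Esrrb; Tbx3 and Prdm14 were not matched. These entries are shown for the GC-rich SMAD1/5 element GGCGCC, which is its own reverse complement and is written in capitals. The element lies in the Tfcp2l1 entry, beginning 21 bases before the start, and in 1 of the 2 Esrrb entries, beginning 18 bases after the start. The first sequence is the whole 250 bases before the Tfcp2l1 start (GRCm38.p6 chr1:118627695-118627944, plus strand), and the second is the 30-base surrounding of the Esrrb element (GRCm38.p6 chr12:86421650-86421679, plus strand).
Tfcp2l1: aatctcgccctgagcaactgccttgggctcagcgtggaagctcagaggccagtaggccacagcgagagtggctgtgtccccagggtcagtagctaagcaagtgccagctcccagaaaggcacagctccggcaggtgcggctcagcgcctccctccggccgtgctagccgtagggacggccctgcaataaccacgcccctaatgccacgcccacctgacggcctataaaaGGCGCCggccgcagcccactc
Esrrb: ctccaagtgtcgGGCGCCccagcctcctcc
These positions belong to another build than the peaks, so whether any peak covers these promoters was not determined.

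GGCGCC occurred in 3898 of all 32851 promoter entries (11.9%). The related element GGAGCC, searched on both strands, was found 2 times in the Esrrb entry that holds GGCGCC and in neither other entry, against 30.8% of all entries. The short SMAD box GTCT, searched on both strands, occurred 3 times and 2 times in the Esrrb entries and not in the Tfcp2l1 entry, against 88.0% of all entries. Its palindromic double GTCTAGAC, which contains GTCT on both strands, was in none of the 3 entries and in 0.213% of all. Of 14 other genes of the naive network, 11 were matched, and 2 held GGCGCC: Fgf4, a growth factor, and Gbx2, a homeobox factor. Of 7 BMP target genes, 4 were matched, and Id2 and Id4, inhibitors of basic helix-loop-helix factors, held it. A match of letters is a description and not a site of binding.

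All 4 windows carried SMAD1/5 peaks in both ESC media, at a higher density than the lists as a whole. In LIF+serum there were 5 peaks at Esrrb, 3 at Tfcp2l1, 4 at Tbx3 and 3 at Prdm14. In LIF+BMP-4 there were 11 at Esrrb, 6 at Tfcp2l1, 10 at Tbx3 and 5 at Prdm14. With all deposited peaks, every window held more LIF+BMP-4 than LIF+serum peaks. Among peaks scoring 100 or more this held at Esrrb (5 against 2) and Tfcp2l1 (3 against 1), whereas Prdm14 had 1 in each medium and Tbx3 had 2 from LIF+BMP-4 against 3 from LIF+serum. That cut does not take like shares of the lists. A score of 108.96 stood in the top 19.1% of LIF+serum, and a score of 109.44 in the top 24.5% of LIF+BMP-4. Per 100 kb the windows held 1.50 to 2.00 LIF+serum peaks and 2.50 to 5.00 LIF+BMP-4 peaks, against 0.366 and 0.573 over the whole lists. The windows were chosen with earlier results of these data known, so the higher density describes them and is not a test.

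**Figure D1:**
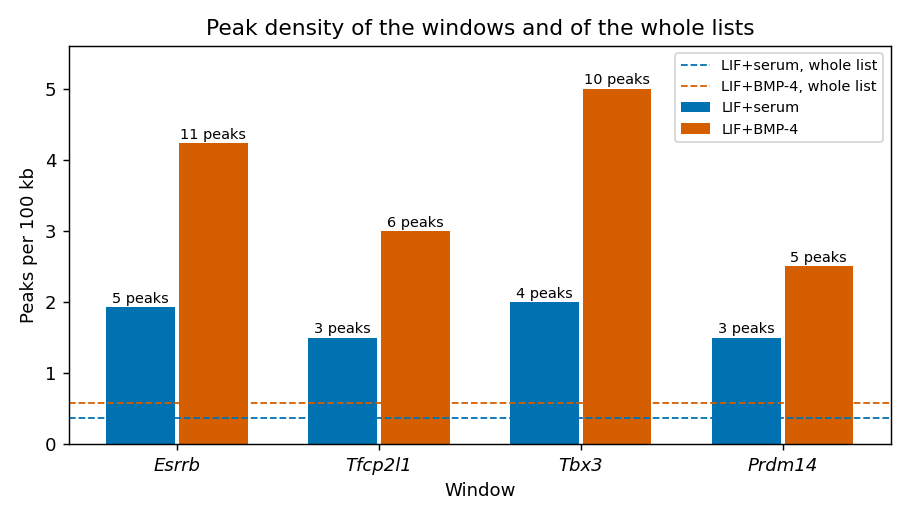
Bars give peaks per 100 kb (y axis) in each window (x axis) for LIF+serum and LIF+BMP-4, each from 1 library, with the number of peaks above the bar. Dashed lines are the density of each whole list, 0.366 and 0.573 peaks per 100 kb. All 8 bars lie above the line of their own list.

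The windows differed in how far they stood out from the genome. When 20 chromosomes were divided into consecutive tiles of the same width, 0.623% of 200 kb tiles held at least the 10 LIF+BMP-4 peaks of Tbx3. The corresponding share was 4.12% for the 6 peaks of Tfcp2l1 and 6.35% for the 5 peaks of Prdm14. For Esrrb, 0.992% of 260 kb tiles held at least 11. For LIF+serum the shares were 4.72% (Esrrb), 5.05% (Tbx3) and 9.08% for the 3 peaks of either Tfcp2l1 or Prdm14. With all deposited peaks Tbx3 and Esrrb were the denser windows in both media. This order was lost for LIF+BMP-4 peaks scoring 100 or more, of which Tbx3 held 2 and Tfcp2l1, with a window of the same width, held 3. The tiles include sequence without genes and unsequenced stretches, so the shares place the windows in the genome and are not a test.

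The excess of LIF+BMP-4 peaks was smaller, but not gone, when the ESC lists had equal length. The ratio of LIF+BMP-4 to LIF+serum peaks was 2.13 in the windows and 1.57 over the whole lists. With the LIF+BMP-4 list reduced to its 9387 highest-scoring peaks, the windows held 18 LIF+BMP-4 peaks against 15 from LIF+serum. At this length Esrrb had 6, Tfcp2l1 4, Tbx3 6 and Prdm14 2, and at Prdm14 the direction turned, with 3 LIF+serum peaks.

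Each peak has a score that the authors' peak caller gave it. The score orders peaks only within its own list, and a place is given here as the rank divided by the length of the list, so that a peak in the top 1% is among the highest-scoring. Sequencing depth is not known from the files, so a place without a peak is not a place without binding.

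By score, both media had their highest-ranking peak of the 4 windows at Tfcp2l1, at the same place. The LIF+serum peak at chr1:120538625-120540129 scored 296.67 and ranked 132 (top 1.41%). The LIF+BMP-4 peak at chr1:120538660-120539870 scored 423.85 and ranked 145 (top 0.987%). Ranked by score per base of width, the Tfcp2l1 peak still led in LIF+serum (top 5.17%). In LIF+BMP-4 it lost the lead (top 4.14%) to the highest peak of Tbx3 (top 1.88%) and also stood behind an Esrrb peak (top 3.97%). The wide LIF+serum peak also met a second, lower LIF+BMP-4 peak at chr1:120540037-120540602, which scored 81.91 and ranked 6522. It was followed by LIF+BMP-4 peaks at chr1:120542171-120542792 (score 109.44, rank 3598) and chr1:120544428-120545203 (score 117.48, rank 3139).

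These 4 LIF+BMP-4 peaks lay within 6.54 kb, and by peaks within 10 kb they made Tfcp2l1 the most tightly packed of the windows. The first 2 of them met the same LIF+serum peak and merged with it into 1 region (chr1:120538625-120540602). The lead therefore rests on counting peaks and not merged regions. Of all LIF+BMP-4 peaks, 1.20% began a 10 kb stretch with 4 or more peaks. The last of the 4 met the second LIF+serum peak, at chr1:120544443-120545369 (score 70.32, rank 4712.5), whereas the peak at 120542171 met none. Outside the group, a pair of LIF+BMP-4 peaks at chr1:120521886-120522673 and chr1:120522980-120523398 scored 50.56 and 50.02, at the bottom of the list with ranks 14484 and 14690.5. The third LIF+serum peak, at chr1:120627844-120628455, scored 59.29 (rank 6706) and had its nearest LIF+BMP-4 peak 44730 bp away.

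At Esrrb the peaks were spread over 125 kb, and the leading LIF+serum peaks were found again in LIF+BMP-4. The highest peak of both media was at chr12:87776363-87777500 in LIF+serum (score 183.84, rank 504, top 5.37%) and at chr12:87776534-87777305 in LIF+BMP-4 (score 175.01, rank 1263, top 8.59%). Their midpoints were 12 bp apart. The next LIF+serum peak, at chr12:87797300-87798483, scored 116.75 (rank 1512.5), and its LIF+BMP-4 counterpart at chr12:87797856-87798233 scored 134.24 (rank 2341). The third pair, at chr12:87830178-87831399 and chr12:87830547-87831160, scored 77.21 (rank 3871.5) and 65.06 (rank 9570). By score, the 3 shared sites thus had the same order in both lists. By score per base of width they did not. The peak at 87797856 (top 3.97%) then led the peak at 87776534 (top 17.9%) in LIF+BMP-4, whereas the peak at 87776363 still led in LIF+serum.

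Esrrb also held a group of high-scoring LIF+BMP-4 peaks with no LIF+serum counterpart. They lay at chr12:87839587-87840197 (score 141.99, rank 2057), chr12:87842462-87843363 (score 142.49, rank 2041) and chr12:87845004-87846023 (score 142.98, rank 2029.5). By score all 3 fell in the top 14.0% of the list, within 6.44 kb, and held places 2, 3 and 4 among the 11 LIF+BMP-4 peaks of the window. Their widths were 611, 902 and 1020 bp, against a median of 578 bp for the 11. By score per base of width the peak at 87797856 led the window, and the places of the 3 were not determined. The nearest LIF+serum peak was 8188 bp from the first, 11063 bp from the second and 13605 bp from the third. Of all LIF+BMP-4 peaks scoring at least 141.99, 360 of 2057 (17.5%) had no LIF+serum peak.

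Such groups were rare in the LIF+BMP-4 list. Among the 1020 peaks in its top 25% without a LIF+serum peak, the Esrrb group was the 1 run of 3 within 10 kb. There were 2 such runs when 20 kb were allowed and 5 when 50 kb were allowed. Among the 3260 such peaks in its top 50%, there were 9 runs within 10 kb. The group and these limits were chosen after the values were seen, so the counts describe the list and do not test it. Runs were counted from ranks by score only, not by score per base of width.

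The remaining Esrrb peaks were lower. The LIF+BMP-4 peak at chr12:87774095-87774637, 1726 bp from the highest LIF+serum peak, scored 91.13 (rank 5266). The other 4 LIF+BMP-4 peaks without a counterpart scored 54.74 to 61.72, and the 2 LIF+serum peaks without one scored 56.08 and 57.97. One of these LIF+serum peaks, at chr12:87811503-87812400, was 2939 bp from a LIF+BMP-4 peak; the other, at chr12:87721508-87722080, was 52.0 kb from any.

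At Tbx3 all 4 LIF+serum peaks were called in LIF+BMP-4 as well, but the order differed. The highest was at chr5:120170207-120171169 in LIF+serum (score 130.38, rank 1190, top 12.7%) and at chr5:120170418-120170817 in LIF+BMP-4 (score 185.11, rank 1117, top 7.60%). A second LIF+BMP-4 peak under the same LIF+serum peak, at chr5:120170861-120171208, scored only 54.82. The next site, at chr5:120159681-120160661 in LIF+serum, scored 126.23 (rank 1276), and its LIF+BMP-4 counterpart at chr5:120159753-120160362 scored 118.25 (rank 3104).

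The other shared Tbx3 sites changed places. The peak at chr5:120156315-120157174 was the third in LIF+serum (score 108.96, rank 1791.5, top 19.1%). Its counterpart at chr5:120156443-120156786 was the ninth of 10 in LIF+BMP-4 (score 53.25, rank 13247, top 90.1%). These places are by score, and the counterpart, 344 bp wide, was the narrowest LIF+BMP-4 peak of the windows. Its place by score per base of width was not determined. The peak at chr5:120115599-120116304 was the lowest of the 4 in LIF+serum (score 67.16, rank 5204) and its counterpart at chr5:120115692-120116262 the third in LIF+BMP-4 (score 98.79, rank 4479). The 5 LIF+BMP-4 peaks without a counterpart scored 51.37 to 86.02 and were spread from the edge of the window, where 1 peak crosses the boundary at 120030000, to chr5:120129708-120130339.

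Prdm14 had 1 site in common between the media, and it was the highest in both. It lay at chr1:13074458-13075680 in LIF+serum (score 134.78, rank 1096.5, top 11.7%) and at chr1:13074827-13075591 in LIF+BMP-4 (score 238.19, rank 584, top 3.97%). On either side, LIF+serum had peaks at chr1:13064626-13065234 (score 64.61) and chr1:13084777-13085393 (score 51.96) without a counterpart. The LIF+BMP-4 peaks without one scored 50.65 to 81.77. The next highest of them were at chr1:13094051-13094515 (score 81.77, rank 6539.5) and chr1:13206404-13206897 (score 60.64, rank 10677.5), the latter 121011 bp from the nearest LIF+serum peak. After Prdm14 the next protein-coding gene in the GRCm38.p6 order is Ncoa2, a nuclear receptor coactivator, and before it comes Slco5a1.

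The other windows also have neighbours: Gpatch2l and Vash1 for Esrrb, Clasp1 and Gli2 for Tfcp2l1, and Med13l and Tbx5 for Tbx3. Without an mm9 annotation, promoter, intron and intergenic positions were not assigned, and a peak is tied to its window and not to the gene.

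**Figure D2:**
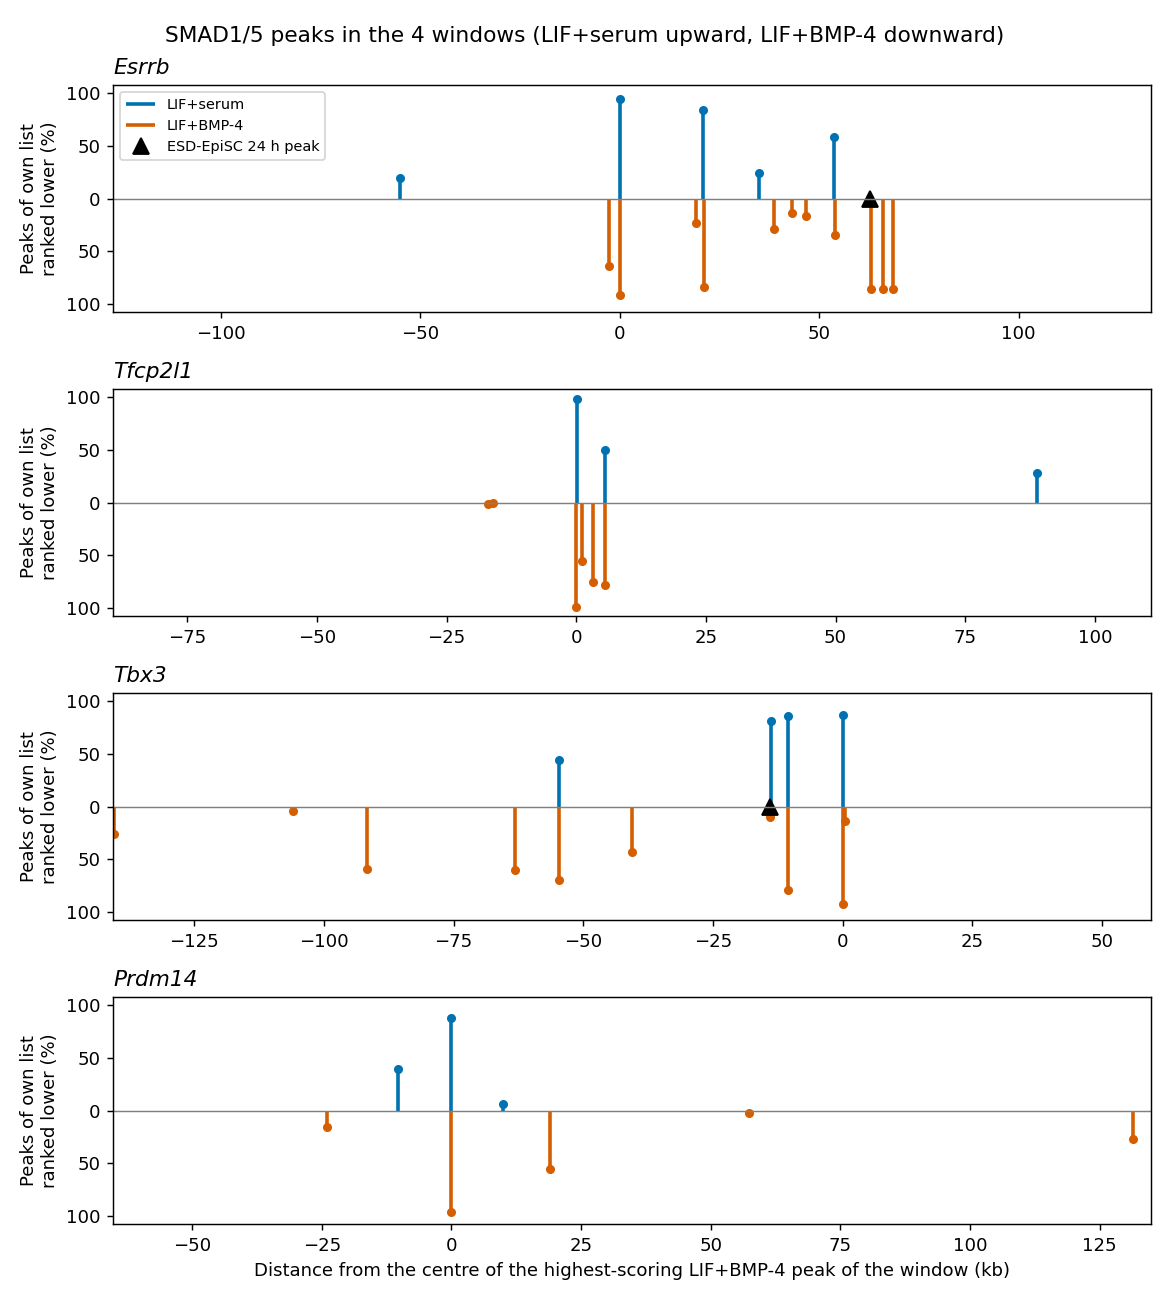
Each panel is 1 window, with distance in kb from the centre of its highest LIF+BMP-4 peak on the x axis. Stems give the percent of peaks in the same list that rank lower (y axis), upward for LIF+serum and downward for LIF+BMP-4, and triangles mark the ESD-EpiSC 24 h peaks. At Esrrb 3 long downward stems of LIF+BMP-4, in the top 14.0% of the list, have no upward stem, and the 24 h peak sits on the first of them.

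In total, the share of sites found in both media was close to that of the whole lists. Of the LIF+serum peaks in the windows, 10 of 15 overlapped a LIF+BMP-4 peak (66.7%, exact Clopper-Pearson 95% interval 38.4 to 88.2), against 58.8% of the whole list. Of the LIF+BMP-4 peaks, 12 of 32 overlapped a LIF+serum peak (37.5%, 21.1 to 56.3), against 38.7%. The intervals cover counting error only. By gene the LIF+serum counts were 3 of 5 at Esrrb, 2 of 3 at Tfcp2l1, 4 of 4 at Tbx3 and 1 of 3 at Prdm14, and the LIF+BMP-4 counts 3 of 11, 3 of 6, 5 of 10 and 1 of 5. These numbers are too small to separate the genes.

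After overlapping peaks were merged, the windows held 35 regions. Both media had a peak in 10 of them (28.6%), while 5 (14.3%) came from LIF+serum alone and 20 (57.1%) from LIF+BMP-4 alone. Over all 18386 ESC regions the shares were 29.9%, 21.0% and 49.0%.

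By score, the LIF+serum peaks of the windows that were shared outranked all those that were not. The 10 shared peaks scored 67.16 to 296.67 with a median of 121.49, and the 5 others scored 51.96 to 64.61, without overlap. The whole list had the same direction: 72.1% of LIF+serum peaks scoring at least 67.16 were called in LIF+BMP-4, against 40.7% of those scoring at most 64.61. Per base of width the separation in the windows did not hold. The shared Esrrb peak scoring 77.21 was 1222 bp wide, and the unshared Prdm14 peak scoring 64.61 was 609 bp wide. Wider peaks can also meet a peak of the other list more easily. In LIF+BMP-4 the groups overlapped, from 53.25 to 423.85 for the 12 shared peaks and from 50.02 to 142.98 for the 20 others. The Esrrb group gave the highest 3 values of the latter.

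**Figure D3:**
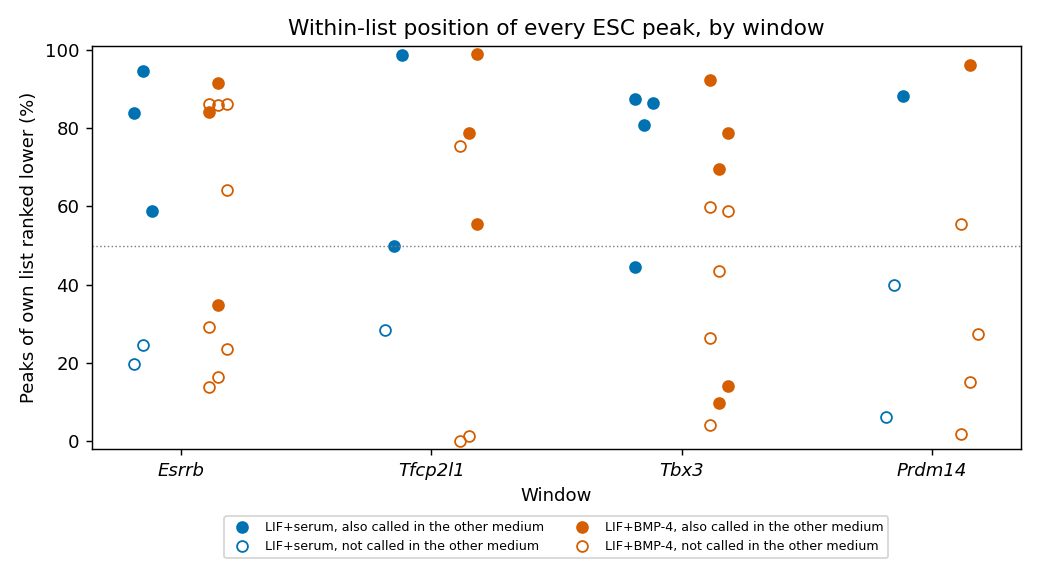
Each point is 1 ESC peak, by window on the x axis and by the percent of its own list that ranks lower on the y axis; the dotted line is the middle of a list. Filled points were also called in the other medium and open points were not. For LIF+serum, the 10 filled points have scores of 67.16 or more and the 5 open points 64.61 or less, while for LIF+BMP-4 the 3 highest open points belong to Esrrb.

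Peaks counted as shared only when they overlapped, so near midpoints follow in part from the definition. Among the 8 pairs matched 1 to 1 between the media, midpoints were 12 to 153 bp apart with a median of 102 bp, against a median of 70.5 bp for all 5330 such pairs. In the combinations that were not 1 to 1, midpoints were up to 942.5 bp apart. The LIF+serum peaks of the windows were wider, with a median of 927 bp against 562 bp in LIF+BMP-4. This follows the whole lists, with medians of 811 bp and 500 bp. In 9 of the 12 overlapping combinations the LIF+BMP-4 peak lay wholly inside the LIF+serum peak. The share over the whole lists was not computed, so this count is not a trait of the windows. At Tfcp2l1 and Tbx3, 1 wide LIF+serum peak each met 2 LIF+BMP-4 peaks.

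**Figure D4:**
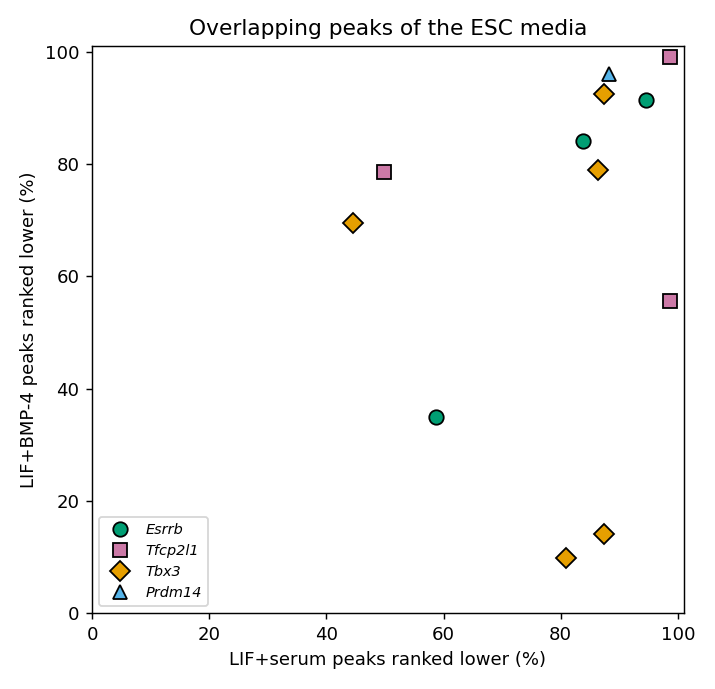
Each of the 12 points is an overlapping combination of a LIF+serum and a LIF+BMP-4 peak, with the percent of LIF+serum peaks ranked lower on the x axis and the percent of LIF+BMP-4 peaks ranked lower on the y axis. Points that share a LIF+serum peak lie above each other (1 case each at Tfcp2l1 and Tbx3). The lowest point is the Tbx3 site that by score was in the top 19.1% of LIF+serum and the top 90.1% of LIF+BMP-4.

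In ESD-EpiSCs the windows were nearly empty of peaks. No peak was called after 1.5 h of BMP-4, and after 24 h there was 1 at Esrrb and 1 at Tbx3. The Tfcp2l1 and Prdm14 windows had none at either time. The nearest 1.5 h peak was 375 kb from the Prdm14 window, 524 kb from Tbx3, 1.68 Mb from Esrrb and 14.0 Mb from Tfcp2l1. The nearest 24 h peak was 4.92 Mb from Prdm14 and 9.47 Mb from Tfcp2l1. The ESD-EpiSC lists are short, so an empty window is the usual case: 98.5% of 200 kb tiles had no 1.5 h peak and 99.1% no 24 h peak.

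Both 24 h peaks fell inside ESC peaks, but not inside the leading ones. At Esrrb the peak at chr12:87839658-87839750 (93 bp, score 56.34, rank 82 of 133) lay within the first peak of the LIF+BMP-4 group described above, which ranked 2057. The nearest LIF+serum peak was 8259 bp away. At Tbx3 the peak at chr5:120156634-120156757 (124 bp, score 55.65, rank 88) lay within the LIF+serum peak of rank 1791.5 and within its LIF+BMP-4 counterpart of rank 13247. It is the Tbx3 site that by score stood high in LIF+serum and low in LIF+BMP-4, where its peak was narrow. The highest ESC peak of each of the 4 windows met no ESD-EpiSC peak.

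ESD-EpiSC peaks thus met 1 of 15 LIF+serum peaks and 2 of 32 LIF+BMP-4 peaks of the windows (6.67% and 6.25%), against 0.735% and 0.517% of the whole lists. The exact intervals, 0.169 to 31.9% and 0.766 to 20.8%, are wide, peaks of 1 library are not independent, and each count rests on 1 or 2 narrow peaks. Of all 24 h peaks, 36 of 133 (27.1%) overlapped an ESC peak, with a median rank of 58.75 and a median width of 123 bp, and 10 of these met LIF+BMP-4 peaks only, as at Esrrb. Tiles as rich in ESC peaks as the Esrrb window numbered 88, and 6 of them held a 24 h peak. For Tbx3 the numbers were 75 and 4, and for Tfcp2l1 and Prdm14, whose windows had no 24 h peak, 431 and 14 and 596 and 19. Over all tiles, 1.15% of those of 260 kb and 0.872% of those of 200 kb held a 24 h peak. When the 4 lists were limited to scores of 100 or more, no ESD-EpiSC peak remained in the windows.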

How the data were processed

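SMAD1/5 ChIP-seq peak lists of 4 libraries were analysed; the 2 input DNA libraries were not analysed here. Bowtie 1.1.0, Picard and MACS 1.4.2 and the mm9 build are listed, without their roles, per the submitters' processing notes. The deposited score of each peak (column 5) is the authors' value; its scale, the control library and the depth of reads are unstated there, so neither precision nor occupancy can be derived from it. The score was used only to rank peaks within a list, with tied peaks sharing a mean rank.

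Peaks were assigned to windows, and shared between lists, by an overlap of at least 1 bp. Positions are 1-based. Tiles ran from the first to the last peak of each chromosome with at least 100 peaks (2565.6 Mb). The code used Python 3.11.15, numpy 2.4.6, pandas 2.3.3, scipy 1.17.1 and matplotlib 3.10.9. Only its search for overlaps between peaks was tested on simulated data. Named peaks were all ESD-EpiSC peaks, the 3 highest of each ESC list per window with their counterparts, and those in the top 5% of a list. Others that are named, the Esrrb group as a group and the limits of its runs were chosen after their values were seen. Members, windows and lists were chosen with earlier results of these data known. Alternatives were a score of at least 100, ESC lists of equal length, removal of peaks over 5 kb, wider and narrower windows, stricter and looser overlap, merged regions, and ranking by score per base.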

Additional observations from a re-analysis of the deposited data

How the results depend on the processing

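No paired analysis was possible because every group consists of a single library. Of the values that answer a comparison, 47 stayed within their limit under an alternative (1.5 times for counts and median places, the exact interval for shares) and 7 moved past it. Some of the 47 could not move. The widest peak of the windows had 1505 bp, so removal of peaks over 5 kb took none away, and a count of 0 cannot fall. The limit for shares is wide: a LIF+serum share of 66.7% that became 85.7% still lay within it. The tally is therefore not a measure of stability. Limiting the lists to scores of 100 or more left the windows with 7 LIF+serum, 11 LIF+BMP-4 and 0 24 h peaks, and 0 LIF+serum and 0 LIF+BMP-4 peaks met by an ESD-EpiSC peak. ESC lists of equal length left 18 LIF+BMP-4 peaks, of which 1, at Esrrb, met an ESD-EpiSC peak. These settings shorten the lists by construction. The surplus of LIF+BMP-4 over LIF+serum peaks turned at Tbx3 (2 against 3) and was lost at Prdm14 (1 against 1) at scores of 100 or more, and turned at Prdm14 (2 against 3) at equal length. A score of 100 cuts the ESC lists at unlike places, so the counts above it are not from like shares of the lists. Shares between the media ranged from 53.3% to 85.7% for LIF+serum and from 34.4% to 54.5% for LIF+BMP-4. Windows widened by 50 kb on each side held 16 LIF+serum and 33 LIF+BMP-4 peaks, and windows narrowed to their central 50% held 14 and 26. Of the single values by gene, 18 moved past the limit and 38 did not. Ranked by score per base of width, the highest peak stayed the same in all windows and both media except Esrrb in LIF+BMP-4, where the peak at 87797856 led (top 3.97%), but the order between windows changed. In LIF+serum the highest peak moved from the top 1.41% to 5.17% at Tfcp2l1, from 5.37% to 9.29% at Esrrb and from 11.7% to 31.3% at Prdm14. In LIF+BMP-4 it moved from the top 0.987% to 4.14% at Tfcp2l1, from 8.59% to 17.9% at Esrrb, from 3.97% to 6.22% at Prdm14 and from 7.60% to 1.88% at Tbx3, which then led in place of Tfcp2l1. Depth is unknown and limits every absence.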
